A study of Homo sapiens with 9 samples.

Results

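LC-2/ad is an established human lung adenocarcinoma cell line that carries a fusion of the CCDC6 and RET genes. Its parental form is described here from the 3 parental libraries, lettered A, B and C, of the 9 libraries in the study. All other libraries came from ponatinib-resistant derivatives of the line, called PR1 and PR2, that were grown in 200 nM ponatinib, a multi-kinase inhibitor; their values were not used. The labels state no drug for the parental cells. Nor do they say that A, B and C were grown separately, and the spread among them may be technical. The libraries were chosen by their labels, and rows of the deposited table were then ranked by their mean over the 3 libraries. RNA had been isolated with a column kit and made into libraries with a TruSeq RNA kit, per the labels' protocols.

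Lung adenocarcinomas arise from the epithelium of the distal airways and alveoli, and many keep part of the programme of that tissue. NKX2-1 and FOXA factors govern that programme in the normal lung; alveolar type II cells make surfactant, and airway secretory cells make mucins and host defence proteins. A fusion kinase such as CCDC6-RET signals without ligand, through the MAPK cascade among others, so the receptors, ligands and MAPK output genes of the line are described beside its lineage genes.

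The unit is FPKM, fragments scaled to transcript length and library size, which puts genes on a roughly common scale. Between libraries the scale is not fully common. Summed FPKM was 610365 in library A, 681303 in B and 686460 in C. Library differences also went with transcript length, as given below. Values of a gene are printed for libraries A, B and C in that order, and an error is the SD over those 3. With 1 group there was no comparison between conditions and no test. Of 24069 rows, 6068 had a mean of 10 FPKM or more (25.2%), 5519 lay from 1 to 10, 6273 were above 0 but under 1, and 6209 were listed at 0 in all 3 libraries. Among the rows at 10 FPKM or more, 927 reached 100 FPKM and 102 reached 1000 FPKM. The 25.2% is the share of all rows to set beside each count of list members at 10 FPKM or more. It includes many non-coding rows, few of which reached the level. Of protein-coding rows alone, 5575 of 17669 were at 10 FPKM or more, a larger share. List members are mostly protein-coding, so a list share a little above 25.2% is not read as an excess. Protein-coding genes held 90.9% of the summed FPKM, long non-coding RNAs 0.468% and loci that combine several genes 6.96%. The number of rows at 1 FPKM or more was 11545 in library A, 11629 in B and 11436 in C, and log2(FPKM + 1) correlated across the rows at 10 FPKM or more at 0.937 (A and B), 0.923 (A and C) and 0.951 (B and C); rows are not independent replicates. Read totals per library were not among the sources, so the depth behind a value is unknown.

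A limit of the table bears on several members. From TRIM27 to CUTA on chromosome 6, in RefSeq gene order, 141 of 143 protein-coding rows were listed at 0 (98.6%), against 14.8% of the protein-coding rows elsewhere. The interval was picked after the values were seen, and the cause was not tested. It holds genes that most cells use, such as the tubulin gene TUBB and the ribosomal protein gene RPS18, so a 0 there can be a failed estimate. Exceptions were AGPAT1, an enzyme of phospholipid synthesis, at 38.8, 44.2 and 42.9 FPKM, and HLA-DQA1 at a mean of 0.189 FPKM. Members listed at 0 in this interval included the collagen receptor kinase DDR1 and the immediate early gene IER3. Others were the alveolar genes AGER and SFTA2 and the transporter SLC44A4. Absence of these genes is not read from their zeros. The zeros do stay in the row counts and medians of the lists that hold them. Antigen presentation genes of the interval were mostly listed at 0, HLA-E and HLA-DRA among them, and so not readable. Some were readable in combined loci, such as HLA-B,HLA-C at 579, 609 and 723 FPKM. Outside the interval, B2M, the light chain of class I molecules, was at 919.7, 836 and 897 FPKM and CD74, the invariant chain of class II molecules, at 208, 284 and 253 FPKM.

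Among the rows, none of which matched the mitochondrial genome symbols, the most abundant transcripts were those of protein synthesis. Ribosomal protein genes, counted by symbol, filled 18 of the 25 highest rows and 60 of the highest 100. They took 25.4%, 30.8% and 31.4% of the summed FPKM, a mean of 29.2% ± 3.30 (SD, n = 3). The count left out the ribosomal protein gene FAU and combined loci such as RPL4,SNAPC5, at ranks 74 and 61. The count in the highest 100 and the shares are therefore too low. Library A had the lowest share, and B and C lay close together. RPL41 led at 5270.0, 6771 and 6839 FPKM, followed by RPS15 at 5411, 7488 and 5703 FPKM and RPL8 at 4503, 6469 and 6727 FPKM. The 25 highest rows together held 15.97%, 19.3% and 18.8% of the summed FPKM (18.0% ± 1.78, SD, n = 3). Many ribosomal protein genes have near-identical processed copies in the genome, so the division of fragments between gene and copy is uncertain. Other ribosomal members of the 25 highest rows included RPL39, RPL37A, RPL19, RPS25, RPS27, RPLP2, RPLP1, RPS2, RPL13A, RPL35, RPS4X, RPS12 and RPS14, with means from 3537 FPKM (RPS14) to 5793 FPKM (RPL39).

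After the ribosomal proteins, the highest rows included genes of translation, iron storage, glycolysis and the actin cytoskeleton. GNB2L1, a scaffold of the ribosome now called RACK1, was at 3116, 4992 and 5319 FPKM, and TMSB10, which binds actin monomers, at 4666, 5239.7 and 3222 FPKM. The ferritin heavy chain FTH1 was at 3223, 3565 and 5617 FPKM and the light chain FTL at 2014, 2677 and 3617 FPKM, both highest in library C and lowest in A. S100A6, a small calcium-binding protein, stood at 3806, 5247 and 3324 FPKM. The elongation factor EEF1A1 was at 3220.3, 3644 and 4924 FPKM. GAPDH, a glycolytic enzyme, was the steadiest of the 25 highest rows, at 3971, 3835 and 3779.8 FPKM, a mean of 3862 ± 98.5 (SD, n = 3). SNORA70, a small nucleolar RNA encoded in an intron of RPL10, was listed at 4341, 5339 and 2903 FPKM. RPL10 itself was at 875, 1225 and 1483 FPKM, and length scaling is poorly defined for so short a transcript.

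**Figure D1:**
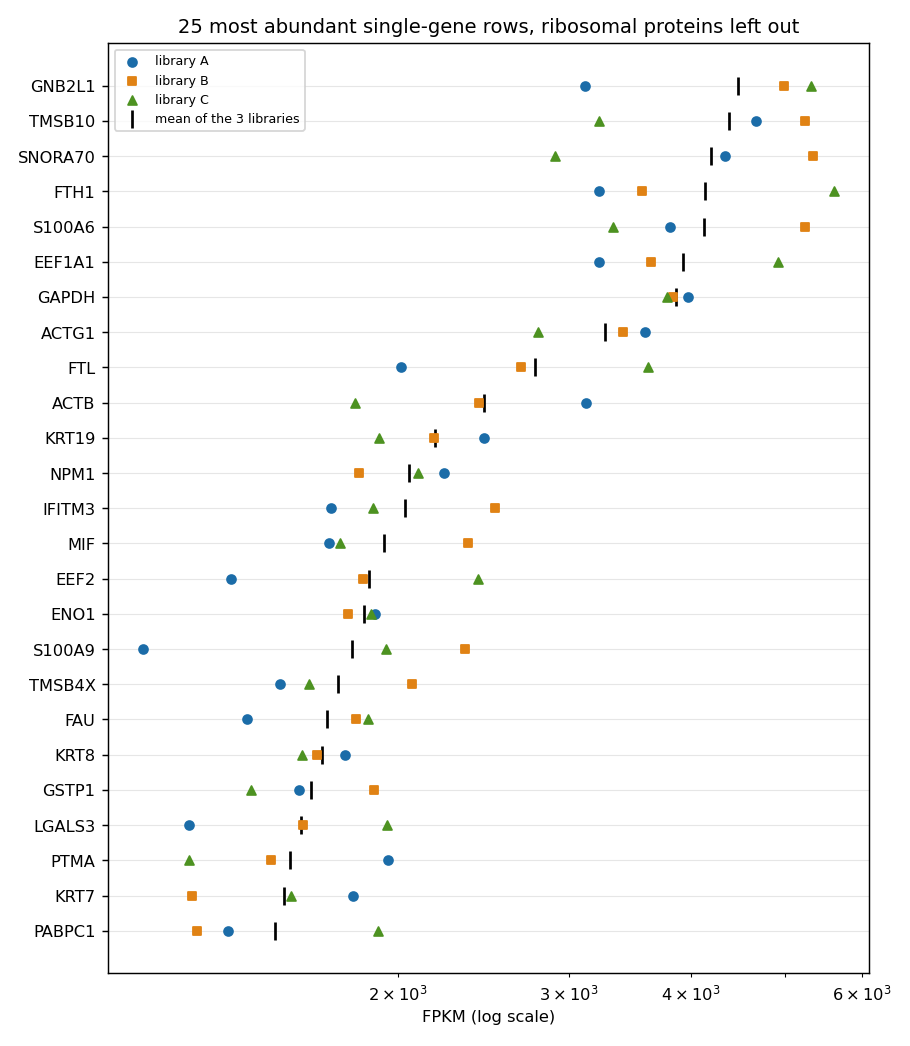
FPKM (log scale) of the 25 most abundant single-gene rows after ribosomal proteins were left out by symbol, with 1 symbol per library and a black tick at the mean of the 3 libraries. FAU, a ribosomal protein gene that the rule on symbols missed, is included. GAPDH, ENO1 and KRT8 have symbols close together, while FTH1 and S100A9 are spread, S100A9 from 1093 FPKM in library A to 2344 in library B.

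Simple-epithelium keratins were also abundant. KRT19 was at 2452, 2180.5 and 1914 FPKM, KRT8 at 1764, 1650.4 and 1594 and KRT7 at 1798, 1227 and 1553. These are the filament proteins of glandular epithelium, and KRT8 varied least of them (SD 86.5 FPKM). KRT18, the usual partner of KRT8, was listed at only 5.47, 8.17 and 6.76 FPKM; KRT18 has many near-identical pseudogenes, so its value is uncertain. In the list of epithelial genes, 30 of 34 with a row had a mean of 10 FPKM or more. They included the adhesion molecule EPCAM at 350.2, 286 and 313 FPKM, the tight junction gene CLDN4 at 247, 346 and 423 FPKM, the protease ST14 at 367, 364 and 292 FPKM and E-cadherin, CDH1, at 86.9, 54.5 and 87.3 FPKM. CLDN4 was highest in library C and lowest in A, and CDH1 was lowest in library B. The 4 below the level were DSP, KRT18, PKP2 and KRT81.

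Few genes of mesenchymal state were above the level: 2 of 21 with a row. S100A4, a calcium-binding protein linked to motility, was at 229, 305 and 76.3 FPKM, and TGFBI, a matrix protein, at 356, 126 and 116 FPKM. Library C was lowest in both. VIM, the mesenchymal filament protein, was at 5.12, 1.93 and 1.64 FPKM, and its mean of 2.89 ± 1.93 (SD, n = 3) became 1.78 without library A. The mean was 0.0169 FPKM for ZEB1, and TWIST1 was listed at 0. TAGLN, a smooth muscle protein, falls in a combined locus with SIDT2 that stood at 283, 35.5 and 24.2 FPKM, so the share of TAGLN cannot be told apart from that of SIDT2.

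The lung lineage transcription factors were measured in 40 rows, of which 15 had a mean of 10 FPKM or more. That is 37.5%, against 25.2% of all rows. Beside lung factors the list holds general epithelial factors, such as ELF3, and factors of other tissues, such as CDX2 and NEUROD1. Its share is therefore not a measure of a lung programme. NKX2-1, the defining factor of lung and thyroid epithelium, was at 77.9, 69.1 and 51.9 FPKM, a mean of 66.3 ± 13.2 (SD, n = 3), highest in library A and lowest in C. SOX2, a factor of the conducting airway, was at 33.3, 51.4 and 35.7 FPKM, and FOXA1, a pioneer factor of endoderm, at 42.1, 46.9 and 28.6 FPKM. ELF3, an ETS factor of epithelium, was the highest of the sequence-specific factors on the list, at 169.9, 205 and 196 FPKM. The list's highest member, ID1, which binds basic helix-loop-helix partners and not DNA, was at 509.6, 419 and 268 FPKM.

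Other members above the level covered epithelial and alveolar regulators. CEBPB and CEBPD, factors of alveolar maturation and the acute phase, were at 92.5, 106 and 175 and 77.5, 120.3 and 148 FPKM, both lowest in library A and highest in C. EHF and KLF5 were at 53.6, 46.3 and 50.3 and 57.8, 38.6 and 50.2 FPKM. YAP1, the coactivator that the Hippo pathway restrains, was at 49.7, 29.4 and 38.9 FPKM. Several factors lay just under the level: SOX9, a distal tip factor, had a mean of 9.87 FPKM and CEBPA of 9.38 FPKM. FOXA2 had a mean of 5.39 FPKM, TP63, the basal cell factor, of 3.698 and GATA6 of 1.71. HNF4A, the hepatic and gut factor, had 0.00919 FPKM, or 0.00311 without library A. SOX17, CDX1 and NEUROD1 were listed at 0. CDX2, an intestinal factor, was at 4.97, 6.03 and 7.01 FPKM.

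**Figure D2:**
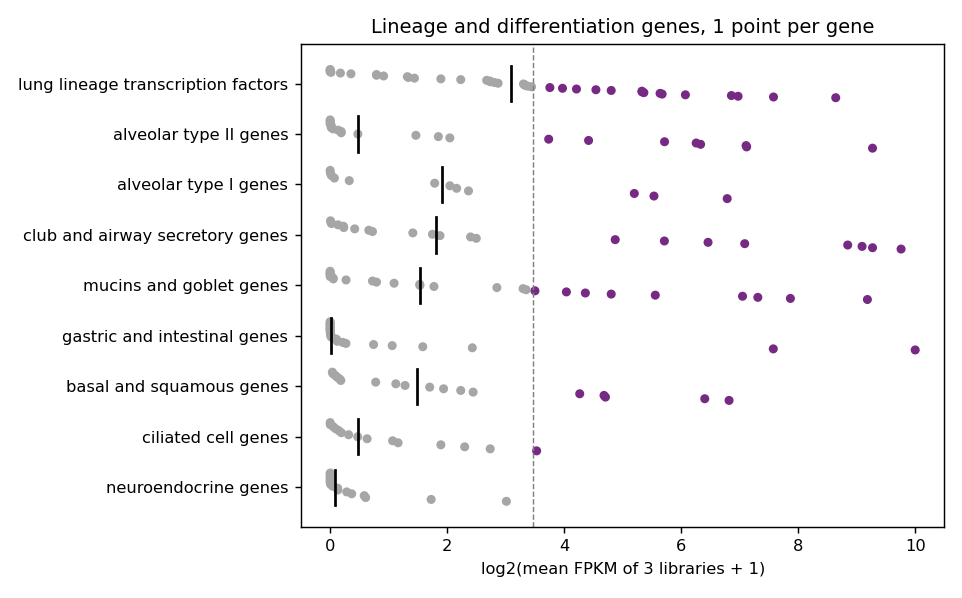
log2(mean FPKM + 1) of each lineage and differentiation gene, with 1 point per gene, by list. Purple points are at 10 FPKM or more (dashed line), grey points are below, and black bars mark list medians. The list of lung lineage factors, which also holds general epithelial and gut factors, has the highest median (7.60 FPKM). The gastric and intestinal genes have the lowest (0.0105 FPKM).

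Alveolar type II genes were partly present. Of 23 rows, 8 had a mean of 10 FPKM or more (34.8%, against 25.2% of all rows). The highest of the 8, SLPI, is also counted on the airway secretory list, and its values are given there. Another 12 were under 1 FPKM, with SFTA2 of the chromosome 6 interval among them. SLC34A2, the phosphate transporter of these cells, was at 128, 138 and 148 FPKM and varied little. SFTPB, a surfactant protein, was at 54.3, 144 and 40.6 FPKM, with library B well above A and C. CTSH, a protease that processes surfactant protein B, was at 112, 154 and 146 FPKM. NAPSA, the aspartic protease used as an adenocarcinoma marker, was at 9.104, 16.1 and 11.7 FPKM. LPCAT1, which makes surfactant lipid, was at 91.2, 75.7 and 59.5 FPKM. SFTPC, the most specific type II gene, was listed at 0, and SFTPA1 and SFTPD had means of 0.0995 and 0.139 FPKM; that of SFTPA1 was 0.0553 without library A. SFTPA1 and SFTPA2 are near-identical, so their division is uncertain; SFTPA2 had 0.389 FPKM. The lamellar body genes ABCA3 and LAMP3 had 1.76 and 2.604 FPKM. Alveolar type I genes reached the level in 3 of 12 rows: GPRC5A at 168, 89.3 and 71.4 FPKM, the caveolar protein CAV1 at 95.1, 23.4 and 17.5 FPKM and EMP2 at 37.95, 40.7 and 28.6 FPKM. In GPRC5A and CAV1, library A was highest and C lowest.

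Airway secretory genes were among the most abundant lineage genes, with 8 of 22 rows at 10 FPKM or more (36.4%, against 25.2% of all rows). LCN2, which binds iron siderophores, was at 514, 716 and 1367 FPKM, and the protease inhibitor SLPI at 388, 956 and 507 FPKM. WFDC2, a whey acidic protein family member, was at 331, 834 and 469.9 FPKM, and the chemokine CXCL17 at 359, 642 and 378 FPKM. All of these were lowest in library A. BPIFA1 and BPIFB1, host defence proteins of the airway, were at 44.8, 252 and 108 and 20.2, 125 and 116 FPKM. PIGR, which carries IgA across epithelium, was at 17.8, 38.2 and 28.9 FPKM. SCGB1A1, the defining club cell gene, was at 1.16, 5.604 and 0.318 FPKM, and its mean of 2.36 ± 2.84 (SD, n = 3) became 0.740 without library B. SCGB3A2 had a mean of 0.169 FPKM. Library A was lowest in all 8 members above the level, and library B highest in 7, against 32.8% and 24.4% of all rows at 10 FPKM or more.

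Mucin and goblet genes reached the level in 9 of 27 rows (33.3%, against 25.2% of all rows). AGR2, the disulphide isomerase that folds mucins, was at 429, 683 and 629 FPKM. The membrane mucin MUC1 was at 218, 276 and 204 FPKM, MUC4 at 124, 173 and 97.3 and MUC20 at 102, 172 and 199.6. MUC16, the CA125 antigen, was at 15.1, 17.5 and 13.7 FPKM. Membrane mucins thus made up the mucins above the level. Gel-forming mucins were low: MUC5B had a mean of 2.42 ± 1.54 FPKM (SD, n = 3), or 1.58 without library B, and MUC2 and MUC6 had 0.0382 and 0.00142 FPKM. MUC5AC matched no row and is not analysed here. SPDEF, the factor of goblet differentiation, was at 25.1, 37.8 and 17.9 FPKM and CREB3L1, a factor of secretory capacity, at 5.48, 36.1 and 17.2 FPKM.

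Markers of other epithelia differed by list. At 10 FPKM or more were 7.41% of gastric and intestinal rows and 27.8% of basal and squamous rows, against 25.2% of all rows. Gastric and intestinal genes had 2 of 27 rows at 10 FPKM or more, CEACAM6 at 1093, 1115 and 863 FPKM and CEACAM5 at 225, 223 and 121 FPKM, which encode surface antigens also made by lung adenocarcinoma. KRT20, the gut keratin, had a mean of 4.39 FPKM. Basal and squamous genes had 5 of 18 rows at the level. KRT17 was at 209.6, 80.1 and 46.03 FPKM, S100A2 at 141, 82.6 and 27.2 FPKM and KRT6A at 53.8, 14.4 and 5.75 FPKM, each highest in library A and lowest in C. KRT15 was at 21.8, 26.9 and 26.6 FPKM and TRIM29, an ATM-binding protein of squamous epithelium, at 27.4, 14.7 and 12.6 FPKM. KRT5, the defining basal keratin, had a mean of 1.43 FPKM. KRT14 falls in a combined locus with KRT16 that stood at 19.6, 6.63 and 7.03 FPKM. Paralogs of the keratin 6, 16 and 17 groups share sequence, so their division is uncertain.

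Ciliated cell genes had 1 of 15 rows at 10 FPKM or more, the tubulin gene TUBA1A at 21.1, 6.22 and 4.28 FPKM, and neuroendocrine genes had 0 of 16. The ciliary master factor FOXJ1 had a mean of 2.71 FPKM. CHGA and INSM1, defining neuroendocrine genes, were listed at 0. Markers of cells that could contaminate a culture were also low. Fibroblast genes had 0 of 12 rows at the level, with COL1A1 at 6.48 FPKM and COL3A1 listed at 0. Blood cell genes had 0 of 13, with the leukocyte antigen PTPRC at 0.00559 FPKM and CD14 at 6.17. Endothelial genes had 1 of 10, EGFL7 at 11.1, 23.6 and 17.3 FPKM, and CDH5, a defining gene, was at 0.379 FPKM. Taking the 9 lineage lists with each gene once, 49 of 187 rows were at the level (26.2%). That is close to the 25.2% of all rows and under the share of protein-coding rows.

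Receptor tyrosine kinases were measured in 58 rows, and 13 had a mean of 10 FPKM or more (22.4%, against 25.2% of all rows). MET, the receptor of hepatocyte growth factor, was highest at 110.2, 66.7 and 84.9 FPKM, a mean of 87.2 ± 21.9 (SD, n = 3). ERBB2 was at 85.1, 85.7 and 71.8 FPKM and EPHA2, an ephrin receptor, at 58.5, 47.9 and 66.5 FPKM. The ranges of MET and ERBB2 overlapped, so their order is not resolved. ERBB3, a partner of ERBB2, was at 25.6, 26.8 and 27.05 FPKM with the smallest relative spread of these. RET was at 13.1, 14.8 and 15.7 FPKM, a mean of 14.6 ± 1.31 (SD, n = 3), and PTK7, a WNT co-receptor, had a mean of 14.6 ± 3.24 FPKM (SD, n = 3), so their order is not resolved. A row total cannot separate fragments of the CCDC6-RET fusion from those of an unrearranged RET gene. CCDC6, the fusion partner, was at 17.1, 10.8 and 16.7 FPKM.

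Other members above the level were EPHB4, RYK, EPHB3, PTK7, EPHB2, MST1R, EPHA1 and FGFR3. Those nearest the level inside were MST1R at 15.7, 12.6 and 10.6 FPKM, EPHA1 at 11.5, 12.6 and 10.05 FPKM and FGFR3 at 13.01, 14.1 and 6.04 FPKM. Nearest outside were EGFR at 9.78, 7.24 and 7.799 FPKM, IGF1R at 8.84, 7.14 and 8.41 FPKM and LMTK3 at 7.48, 10.3 and 5.94 FPKM. FGFR3 fell under the level in library C and LMTK3 passed it in library B. In 31 rows the mean was under 1 FPKM. ALK and ROS1, which form fusions in other lung adenocarcinomas, had means of 0.0179 and 0.363 FPKM. GFRA1 and GFRA3, co-receptors that present GDNF family ligands to RET, had 0.00232 and 0.184 FPKM. GDNF had 0.0105 FPKM.

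**Figure D3:**
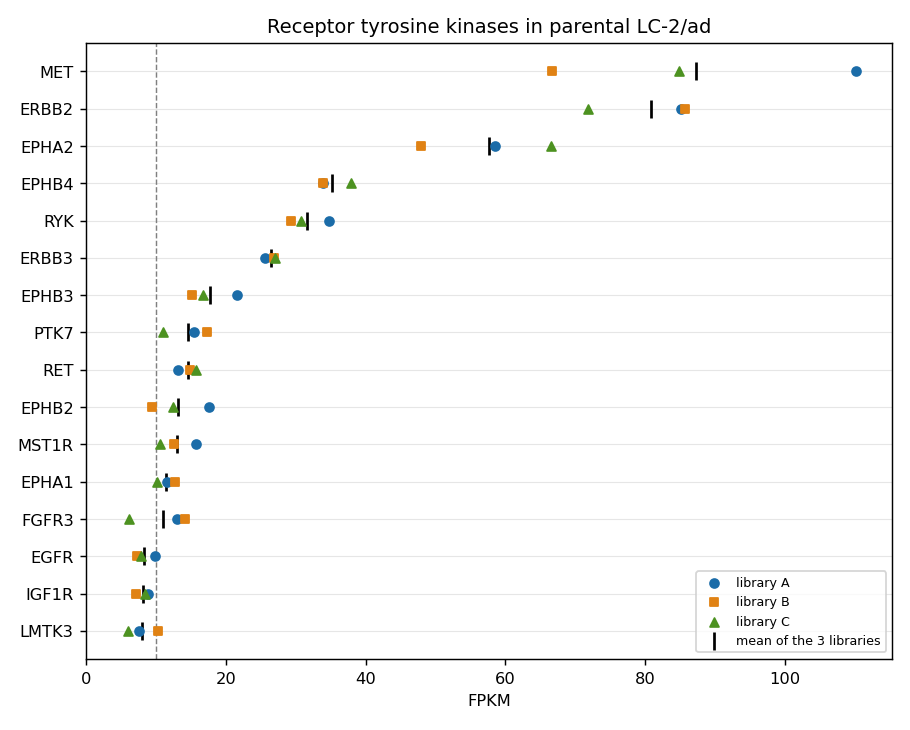
FPKM (linear scale) of the 13 receptor tyrosine kinases at 10 FPKM or more and the next 3, with 1 symbol per library, a black tick at the mean and a dashed line at 10 FPKM. MET spans 66.7 to 110.2 FPKM; RET is among the kinases between 10 and 20 FPKM.

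Ligands of these receptors reached the level in 10 of 53 rows (18.9%, against 25.2% of all rows). MDK, a heparin-binding growth factor, was at 362, 805 and 791 FPKM, and GDF15, a stress-induced ligand that signals through GFRAL and RET in the brainstem, was at 142, 586 and 927 FPKM. GFRAL was listed at 0. VEGFA was at 45.1, 60.2 and 129.8 FPKM, and EFNA1, a ligand of EPHA2, at 32.3, 47.2 and 50.1 FPKM. GDF15 and VEGFA were highest in library C and lowest in A. EREG, a ligand of EGFR, was at 30.7, 8.51 and 23.4 FPKM, lowest in library B. TGFA was at a mean of 8.68 FPKM and HGF, the ligand of MET, was listed at 0.

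Among other receptors, the cytokine and interferon receptors had 10 of 42 rows at the level (23.8%, against 25.2% of all rows). They were led by OSMR at 48.6, 36.6 and 50.4 FPKM, IFNGR2 at 32.8, 44.7 and 50.4 FPKM and IFNGR1 at 40.8, 33.4 and 40.3 FPKM. TNF and death receptors had 4 of 22 rows (18.2%). TNFRSF12A, the receptor of TWEAK, was at 188, 171 and 309.9 FPKM, highest in library C, and LTBR, the lymphotoxin receptor, was at 90.02, 115 and 128 FPKM. TGFBR2 alone of 15 TGF-beta, BMP and activin receptors was above, at 25.7, 14.2 and 24.6 FPKM. NOTCH2 was at 19.4, 16.6 and 20.9 FPKM and NOTCH3 at 13.9, 12.7 and 11.8 FPKM, and these were 2 of 3 NOTCH rows. WNT receptors had 6 of 23, with the coreceptor LRP5 at 65.9, 93.2 and 100.3 FPKM. Of the pattern recognition receptors, TMEM173, the STING adaptor of cytosolic DNA sensing, was the member at the level among 18, at 24.1, 42.9 and 29.4 FPKM.

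Integrins had 8 of 23 rows at 10 FPKM or more (34.8%, against 25.2% of all rows). ITGB1 was at 164, 89.7 and 115 FPKM, ITGA3, a laminin receptor subunit, at 104, 89.4 and 121 FPKM and ITGB4 at 114, 77.7 and 73.9 FPKM. ITGB3 was at 7.86, 27.9 and 13.6 FPKM, highest in library B. Semaphorin and netrin receptors had 6 of 20 (30%), led by PLXNB2 at 135, 140.4 and 152 FPKM. Endocytic and nutrient receptors had 14 of 21, a larger share than the other receptor lists apart from NOTCH. They included the transferrin receptor TFRC at 104, 40.96 and 57.8 FPKM and the folate receptor FOLR1 at 39.7, 68.8 and 46.2 FPKM. G protein-coupled receptors were rare above the level: 16 of 267 rows (5.99%, against 25.2% of all rows). GPRC5A led, followed by GPR110, an adhesion receptor, at 90.6, 89.7 and 95.3 FPKM and GPR56 at 34.96, 49.3 and 106 FPKM. F2RL1, the protease-activated receptor PAR2, was at 31.2, 27.9 and 32.97 FPKM and VIPR1, a receptor of vasoactive intestinal peptide, at 14.8, 15.2 and 18.2 FPKM. The members nearest the level were GPR160, CRHR1 and GPR125 inside, with means of 12.6, 11.4 and 10.1 FPKM, and ADORA2B, CELSR1 and LPAR2 outside, with 8.93, 8.29 and 7.805. No row of the chemokine, biogenic amine, prostanoid, purine or lysophospholipid receptor families was at the level. Surface antigens that therapeutic antibodies target had 19 of 34 rows at the level. Mesothelin, MSLN, was at 35.8, 34.2 and 37.1 FPKM. CD274, the ligand PD-L1, had a mean of 1.67 FPKM.

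Transcription factor families without the ZNF-named genes had 596 rows, of which 153 were at 10 FPKM or more (25.7%, against 25.2% of all rows) and 282 under 1 FPKM. The families were assembled by symbol and hold partners that do not bind DNA, such as ID1 and ID3. Members at 100 FPKM or more numbered 14. HMGA1, an architectural chromatin protein, was highest at 679, 776 and 1107 FPKM. ATF4, the effector of the integrated stress response, was at 225, 517 and 569.6 FPKM, lowest in library A. Immediate early factors were also high: EGR1 at 287, 114 and 311 FPKM, FOS at 308, 182 and 193 FPKM and JUNB at 174, 169 and 252 FPKM. MYC was at 228, 181 and 283 FPKM. EGR1 was lowest in library B, and FOS highest in library A.

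PITX1, a homeobox factor of hindlimb and pituitary, was at 111, 103 and 196 FPKM. XBP1, a factor of the unfolded protein response, was at 68.4, 120.0 and 177 FPKM, HSF1, the heat shock factor, at 81.04, 96.9 and 121 FPKM and HIF1A at 82.9, 55.8 and 143 FPKM. The nuclear receptor NR2F6 was at 78.8, 117 and 115 FPKM. Among families, AP-1 and ATF factors had 27 of 45 rows at the level, basic helix-loop-helix factors 23 of 85, nuclear receptors 13 of 43 and ETS factors 10 of 27. The share to set beside these counts is the 25.7% over the rows of all families. T-box factors had 0 of 17, the HOX genes 1 of 24 (HOXB7 at 24.9, 27.1 and 21.98 FPKM), and SNAI, ZEB and OVOL factors 0 of 8. PPARG, a nuclear receptor of lipid handling, was at 25.6, 25.96 and 25.5 FPKM with little spread. ZNF-named genes had 64 of 491 rows at the level. Closest to the level were HOMEZ, CREBL2 and MEF2A inside, with means of 10.3, 10.3 and 10.1 FPKM, and SMAD5, E2F3 and STAT5B outside, with 9.99, 9.93 and 9.92.

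**Figure D4:**
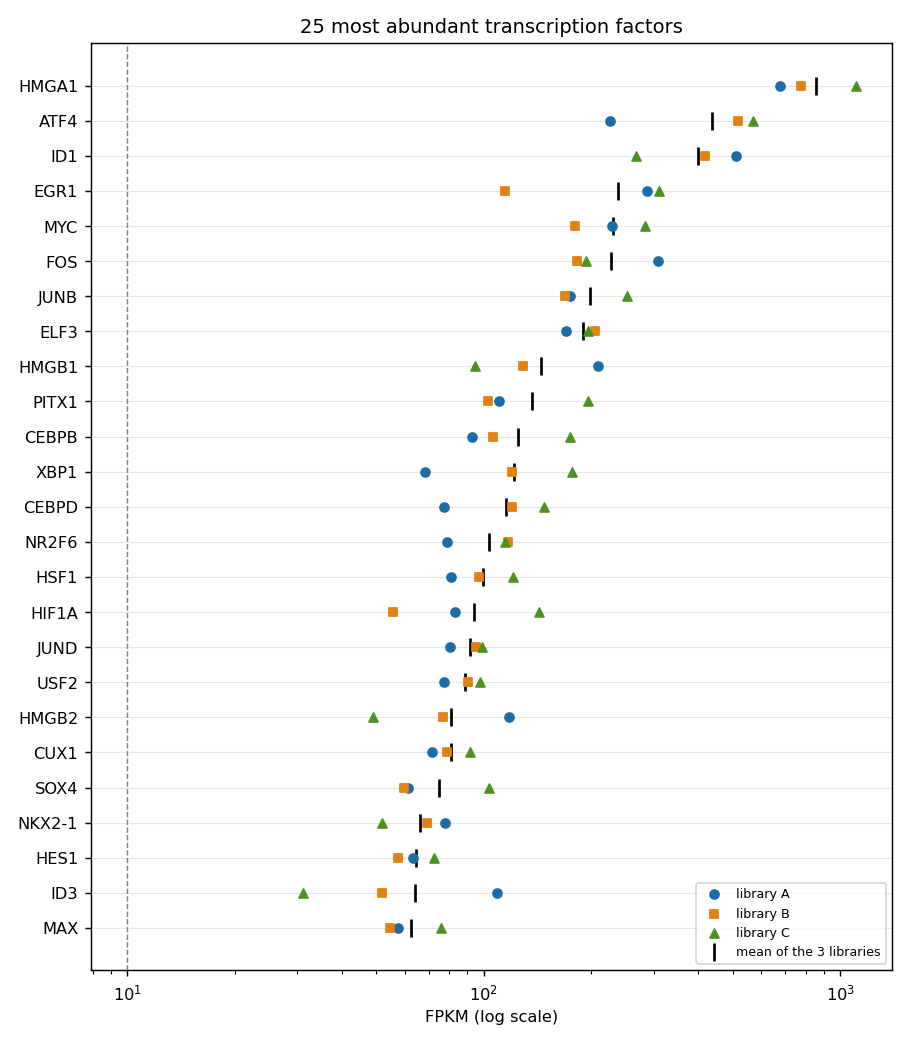
FPKM (log scale) of the 25 most abundant members of the transcription factor families, with 1 symbol per library, a black tick at the mean and a dashed line at 10 FPKM. ELF3 has symbols close together, while ATF4 and XBP1 are lowest in library A and ID3 and HMGB2 are highest there.

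Genes that the MAPK cascade induces were largely above the level, with 19 of 25 rows (76.0%, against 25.2% of all rows). The share was not particular to them: the NRF2, cholesterol synthesis and glycolysis lists below had similar ones. DUSP6, the ERK phosphatase, was at 104, 148 and 191 FPKM, a mean of 148 ± 43.3 (SD, n = 3), and the feedback inhibitors SPRY2 and SPRY4 were at 12.4, 17.4 and 24.2 and 9.99, 13.8 and 15.5 FPKM. ETV4, an ETS factor, was at 25.7, 57.5 and 63.3 FPKM and CCND1, cyclin D1, at 88.95, 63.03 and 95.2 FPKM. The list's members were highest in library C in 16 of 19 and in library A in 3, against 39.2% and 36.4% of all rows at 10 FPKM or more. NRF2 target genes had 18 of 24 rows at the level (75.0%). NQO1, a quinone reductase, was at 178, 179 and 258 FPKM and TXNRD1, thioredoxin reductase, at 135, 92.5 and 134 FPKM. Interferon response genes had 13 of 33 (39.4%). IFITM3, a restriction factor, was at 1705, 2518 and 1886 FPKM and BST2, tetherin, at 106, 137 and 94.7 FPKM, while CXCL10 was at a mean of 0.176. IFITM3 resembles IFITM1 and IFITM2 closely, so its value is uncertain. Cholesterol synthesis genes had 18 of 22 at the level (81.8%) and glycolysis and hypoxia genes 19 of 26 (73.1%). Of the latter, LDHA was at 1012, 497 and 474 FPKM and the hypoxia marker CA9 at 1.08.

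Reference genes often used to scale expression data were all at the level, 16 of 16 rows, but did not all hold steady. TBP, a general transcription factor, was at 15.8, 12.8 and 14.8 FPKM and GUSB, a lysosomal enzyme, at 51.9, 53.4 and 43.9 FPKM. ACTB, the cytoskeletal actin, was at 3119.5, 2424 and 1809 FPKM, highest in library A and lowest in C, and RPL13A, a ribosomal protein, was at 3535, 5305 and 5852 FPKM, highest in C and lowest in A. Long non-coding RNAs had 51 of 2046 rows at the level. SNHG8, a host of small nucleolar RNAs, was at 163, 262 and 533 FPKM, and SNHG5, another host, at 55.2, 72.7 and 199 FPKM, both highest in library C. UCA1, first described in bladder cancer, was at 129.8, 52.6 and 47.9 FPKM, highest in library A, and the nuclear RNA MALAT1 was at 53.4, 49.8 and 39.1 FPKM.

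The rows that varied among the 3 libraries included stress, secretory, basal, mesenchymal and proliferation genes. Over the rows at 10 FPKM or more, the median range of log2(FPKM + 1) was 0.43. A range of 1, a 2-fold span, or more was reached by 466 rows (7.68%), and a range of 2, a 4-fold span, by 66 rows (1.09%), of which 17 were small RNAs listed at 0 in a library. Without library A the number of rows with a 4-fold span was 14, without C it was 27 and without B it was 55. Leaving out a library can shrink a row's range and not widen it, so a fall is partly built in. Rows highest in library C and lowest in A made up 18.9% of the rows at 10 FPKM or more, and rows highest in A and lowest in C 15.6%. The letters carry no order or dose. Among the 100 most variable rows, 40 had the former pattern and 36 the latter.

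The 20 most variable rows, after symbols beginning with LOC, LINC, RNU, RNA5, SNOR or MIR were dropped, spanned log2 ranges of 2.58 to 5.93. The upper end is SCARNA14, a small Cajal body RNA that the rule on symbols kept, listed at 0 except in library B (59.9 FPKM). The next range was 3.49, in the SIDT2,TAGLN locus. TRIB3, a pseudokinase induced by ATF4, was at 27.3, 76.8 and 296 FPKM, CHAC1, which degrades glutathione, at 4.68, 24.1 and 55.7 FPKM and ASNS, asparagine synthetase, at 76.3, 292 and 462 FPKM. All were lowest in library A and highest in C. NUPR1, SESN2, CTH, PCK2, GDF15 and the combined locus ADM2,MIOX had the same pattern, at C values of 21.8, 36.01, 27.9, 116, 927 and 19.99 FPKM and A values of 1.77, 4.83, 3.64, 16.8, 142 and 1.91 FPKM. AZGP1, a lipid-mobilising glycoprotein, was at 23.97, 99.8 and 163 FPKM. Highest in library A were KRT4 at 94.7, 32.2 and 9.697 FPKM, KRT6A, the collagenase MMP1 at 62.9, 29.1 and 8.504 FPKM, THBS1 at 38.9, 4.76 and 6.71 FPKM, FOSB at 27.6, 3.29 and 4.3 FPKM, the imprinted locus H19,MIR675 at 195, 98.4 and 19.9 FPKM and the SIDT2,TAGLN locus. DHRS2 at 13.1, 5.57 and 47.2 FPKM and the SNHG12,SNORA61 locus at 37.2, 34.7 and 309.6 FPKM were highest in library C.

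Stress and amino acid response genes had 19 of 22 rows at the level, and 16 of the 19 had a range of 1 or more, against 7.68% of the rows at 10 FPKM or more. The list held 12 of the 100 most variable rows. Its median difference, library C minus A, was 1.85 on the log2(FPKM + 1) scale, against 0.03 over all rows at 10 FPKM or more, and 14 members were highest in C and lowest in A. PHGDH, the first enzyme of serine synthesis, was at 50.1, 239 and 208 FPKM, PSAT1, the next enzyme, at 39.7, 82.3 and 186 FPKM, DDIT3, the CHOP factor, at 14.5, 22.95 and 82.6 FPKM and the amino acid transporter SLC7A5 at 86.01, 134 and 277 FPKM. HSP90B1, an endoplasmic reticulum chaperone, had the opposite pattern at 335, 260.1 and 257 FPKM. HSPA5, the chaperone BiP, was at 171, 144 and 254 FPKM. The list was chosen with results of these libraries known.

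Cell cycle genes had 28 of 31 rows at the level, and 18 of the 28 had a range of 1 or more. Their median difference, C minus A, was -1.15, and 21 were highest in A and lowest in C, against 15.6% of the rows at 10 FPKM or more. MKI67, the proliferation antigen, was at 32.95, 12.9 and 8.17 FPKM, a mean of 18.02 ± 13.1 (SD, n = 3) or 10.6 without library A, TOP2A, a topoisomerase, at 93.9, 43.7 and 27.4 FPKM and CDC20, a mitotic activator, at 115, 62.5 and 35.5 FPKM. MCM7, a subunit of the replication helicase, was at 139, 127 and 122 FPKM, a narrower spread than in those 3. The 5 basal genes at the level had a median difference of -2.16 and the 8 airway secretory genes one of 0.96. Ribosomal protein genes, 73 at the level, had a median difference of 0.46 and none had a range of 1 or more. Lung lineage factors had 2 of 15 members at a range of 1 or more and receptor tyrosine kinases 1 of 13, with median ranges of 0.61 and 0.46, against 7.68% and 0.43 for the rows at 10 FPKM or more.

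**Figure D5:**
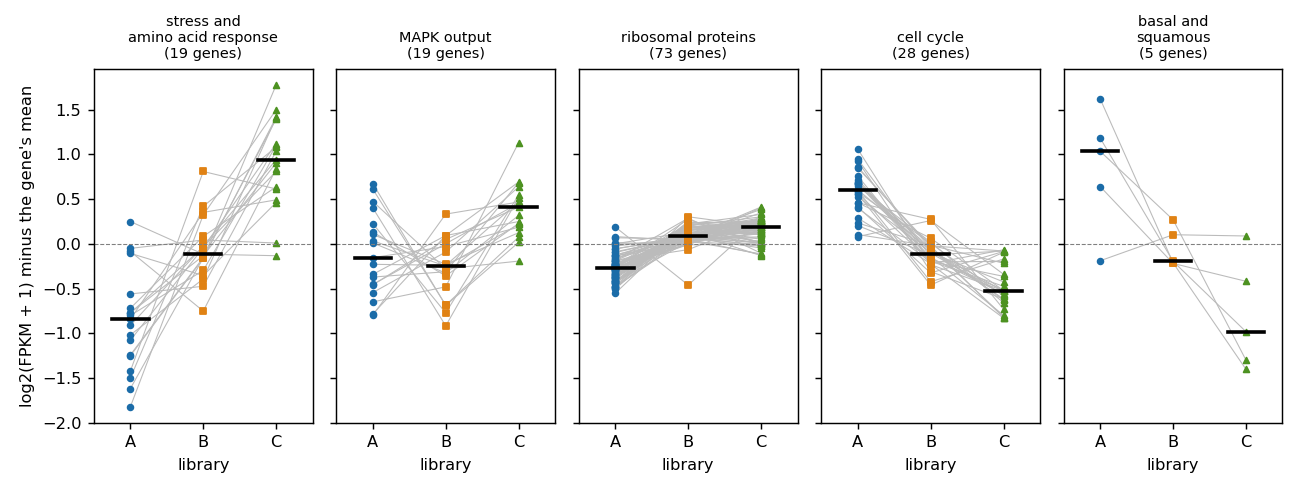
log2(FPKM + 1) minus the gene's own mean in libraries A, B and C for members at 10 FPKM or more of 5 lists; grey lines join the values of a gene and do not imply an order, and black bars are medians. The stress list is lowest in A and highest in C, the cell cycle and basal lists are highest in A, and the ribosomal list is the tightest.

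Library differences also went with transcript length, by an amount that depended on how length was defined. With the longest transcript of each gene in GENCODE v29, the median log2 difference, B minus A, was 0.13 in the shortest 20% of rows and -0.27 in the longest 20%, and C minus B was -0.05 and 0.19. With the median over a gene's transcripts, the B minus A values were -0.06 and -0.21. In the 236 genes with a single annotated transcript, too few (4.14%) for a correction, the B minus A values were 0.39 and -0.23, and the C minus B values -0.40 and 0.34. Removing the trend left the stress list's median difference, C minus A, at 1.80 or 1.84 and that of the cell cycle list at -1.20 or -1.17, by longest or median length. The part of RNA integrity, fragment size and culture state in these differences was not tested.

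Promoters of the stress, cell cycle and interferon lists were searched for short sequence patterns in RefSeq windows of GRCh38.p14, from 250 bases before to 50 after each gene's start, on both strands. The patterns were taken from known factor sites and picked after the values were seen. In all, 10 patterns were searched in 11 pairs of list and pattern. TGATGNAAN, the C/EBP-ATF response element that ATF4 binds, was found in 5 of 21 stress promoters and in 3.67% of 27305 promoters. The narrower TGATGCAA was in 2 of 21 and 0.923% of all, and ATTGCATCA in 0 of 21 and 0.264%. CCAAT, a general element, was in 14 of 21 stress promoters and 19 of 24 cell cycle promoters, against 35.7% of all. A match is a description of the letters and shows no binding. Shown are the stress genes at 10 FPKM or more whose match lay before the start, with the pattern in capitals, 5′ to 3′ on the gene's strand; the pattern may read on either strand.
ASNS (chr7:97872423-97872521, - strand): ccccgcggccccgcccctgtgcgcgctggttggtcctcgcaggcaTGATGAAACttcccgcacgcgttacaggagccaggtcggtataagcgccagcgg
HERPUD1 (chr16:56931920-56932018, + strand): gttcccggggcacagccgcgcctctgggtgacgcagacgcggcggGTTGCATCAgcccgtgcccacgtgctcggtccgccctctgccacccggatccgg
CHAC1 (chr15:40953221-40953314, + strand): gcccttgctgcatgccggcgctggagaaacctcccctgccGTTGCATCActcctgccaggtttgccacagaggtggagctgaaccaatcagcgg

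ASNS has its pattern 68 bases before the start, on the same strand as the gene, and HERPUD1, an endoplasmic reticulum protein, and CHAC1 have theirs 177 and 210 bases before, on the opposite strand. HERPUD1 was at 26.1, 49.05 and 96.7 FPKM. For cell cycle genes, TTTGAA, the cell cycle genes homology region read by the DREAM complex, was in 9 of 24 promoters and 15.4% of all. The related TTCGAA was in 2 of 24 and 1.45%, TTTCCCGC, an E2F site, in 5 of 24 and 1.66%, and TTTGGCGC in 3 of 24 and 0.659%. Shown are the 4 with the highest means and a match before the start. All are of genes highest in library A, as were 27 of the 28 list members at the level, so this does not set them apart.
CDC20 (chr1:43358758-43358853, + strand): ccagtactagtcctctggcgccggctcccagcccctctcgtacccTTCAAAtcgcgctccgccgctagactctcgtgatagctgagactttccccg
PLK1 (chr16:23678815-23678888, + strand): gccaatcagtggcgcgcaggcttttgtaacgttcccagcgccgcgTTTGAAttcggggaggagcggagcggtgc
TOP2A (chr17:40418040-40418135, - strand): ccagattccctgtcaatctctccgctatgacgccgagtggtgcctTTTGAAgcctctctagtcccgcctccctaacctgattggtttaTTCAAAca
CCNB2 (chr15:59105072-59105145, + strand): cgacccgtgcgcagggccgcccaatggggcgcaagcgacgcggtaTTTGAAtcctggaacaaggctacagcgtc

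PLK1, a mitotic kinase, was at 87.2, 51.03 and 34.7 FPKM and CCNB2, cyclin B2, at 67.3, 41.6 and 30.2 FPKM; TTTGAA starts 29 bases before the start in both. GAAANNGAA, the core of the interferon-stimulated response element, was in 19 of 29 interferon promoters and 8.29% of all, and the longer form with 1 more A in 18 of 29 and 3.65%. The interferon list held genes from 2036 FPKM (IFITM3) to 0.0253 FPKM (CXCL11), and the pattern was found in both high and low members. IFITM3 and BST2 are shown as high members.
IFITM3 (chr11:320861-320957, - strand): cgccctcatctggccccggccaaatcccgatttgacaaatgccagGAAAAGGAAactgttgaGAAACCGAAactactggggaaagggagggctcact
BST2 (chr19:17405707-17405805, - strand): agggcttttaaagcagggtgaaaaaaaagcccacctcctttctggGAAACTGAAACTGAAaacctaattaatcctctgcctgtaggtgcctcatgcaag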

How the data were processed

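RNA sequencing of 3 parental LC-2/ad libraries was analysed, from a table of 9. Its values are taken as FPKM deposited by the authors: the header names no unit, and Cufflinks 2.2.1, which gives FPKM, stands in the submitters' processing notes beside Cuffdiff 2.2.1, TopHat2 2.0.14 and builds hg19 and GRCh37. The annotation is not given in the sources used here. Of the 24069 rows, 704 combine several genes and their values cannot be split.

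Rows were ranked by mean FPKM in Python 3.11.15 with pandas 2.3.3. A level of 10 FPKM was used, and variation was the range of log2(FPKM + 1) among rows with a mean of 10 FPKM or more. No test was run, since there was 1 group. The 4-fold range call and the pattern search were tried on simulated data with planted changes and patterns. The simulated noise was small, so the trial checks the code and not the spread of these libraries. The ranking was not tried. Named genes were the 25 highest rows, up to 8 highest members per list with defining markers under 1 FPKM, the 20 most variable rows and a fixed set. Further members and all promoter patterns were named after their values were seen. Members and lists were chosen with earlier results of these data known. Transcript lengths came from GENCODE v29, matched for 95.6% of single-gene rows, and promoters, those of chromosome 8 left out, from RefSeq GRCh38.p14; no gene coordinates of the files' build were used. No row matched the mitochondrial genome symbols. Some genes that the rule named are left out of the text.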

Additional observations from a re-analysis of the deposited data

How the results depend on the processing

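No paired analysis was possible because the values come from 1 group and no test was run. The number of rows that varied at least 4-fold was 66. Leaving out a library can shrink a row's range and not widen it, so a fall is partly built in. The number was 14 without A, 27 without C and 55 without B. It stayed within 1.5 times under the other settings: 71 with a pseudocount of 0.1, 80 with a mean of 5 FPKM, 95 with no filter, 71 with upper quartile scaling, and 64 and 66 with the trend over longest and median transcript length removed (both lengths chosen after seeing the data). Of the 20 most variable rows, 18 remained under each of the last 3. Leaving out a library gave 5995 to 6176 rows at 10 FPKM or more, 12 to 13 receptor tyrosine kinases, 144 to 159 transcription factors, 49 to 52 lineage genes and a share of 17.4% to 19.0% in the 25 highest rows. Asking for 10 FPKM in every library left 5366 rows, 11 kinases, 121 factors and 43 lineage genes, and rescaling every library to the same sum gave 7446, 17, 190 and 57; it multiplies values by 1.46 to 1.64, which lowers the level to 6.10 to 6.86 on the deposited scale. For 6 of the 17 fixed genes tried, leaving out a library or taking the median moved the mean by over 1.5 times: without A, HNF4A to 0.00311, SFTPA1 to 0.0553, VIM to 1.78 and MKI67 to 10.6; without B, SCGB1A1 to 0.740 and MUC5B to 1.58. The medians of SCGB1A1 and VIM were 1.16 and 1.93. Absolute depth is unknown, so low values carry no counting interval.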
